A study of Mus musculus with 30 samples.

Results

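The genes described here are 44 mouse genes for protein folding, translocation and degradation at the endoplasmic reticulum (ER), of 21887 protein-coding genes in the RefSeq gene table of GRCm38.p6, the assembly of mm10. They were followed through 4 peak lists from chromatin immunoprecipitation with sequencing (ChIP-seq) of WT-MA9 cells, mouse acute myeloid leukaemia cells into which a retroviral vector with the MLL-AF9 fusion and GFP was stably introduced. The lists are UTX in cells treated with MI-503, UTX in cells treated with DMSO, Menin in cells treated with MI-503 and Menin in cells treated with DMSO, all harvested 4 days after treatment, with the fusion present in all of them. MI-503 is an inhibitor of the binding of Menin to MLL1 and DMSO its vehicle, and the sources used here do not give its concentration. With a single library for every condition, no comparison below has a replicate check, and no p-value was computed. A gene was counted as having a peak where a summit, the highest point of a peak, lay within 1 kb of its annotated start or end. The genes were selected on peaks in these same lists, so their counts and peak heights describe them and support nothing further.

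Proteins that enter the secretory pathway pass through the Sec61 channel, lose their signal peptide and fold with the help of chaperones, lectins and disulphide isomerases in the ER lumen. Proteins that fail to fold are moved back to the cytosol and degraded, which is called ER-associated degradation (ERAD). When misfolded proteins accumulate, the sensors IRE1, PERK and ATF6 start the unfolded protein response, which raises the transcription of many of these genes. ATF6 and NF-Y act together at the ER stress response element (ERSE), in which a CCAAT box, the letters that NF-Y binds, precedes the letters CCACG. Menin is a scaffold of the MLL1 and MLL2 histone methyltransferase complexes. UTX, the product of Kdm6a, is a histone demethylase and a subunit of the MLL3 and MLL4 complexes.

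The promoter sequences are shown because most summits at these genes lay on them. RefSeq promoter sequences of GRCm38.p6 hold 250 bases before the transcription start and 50 bases from it on. They were matched by gene identifier for 38 of the 44 genes. ERSE was searched as CCAAT and CCACG separated by 9 bases of any letters, and ERSE-II as ATTGG and CCACG separated by 1 base, both on either strand. ERSE was present in 9 of the 38 promoters, against 0.119% of all 32851 promoters in the table and 0.154% of 17492 protein-coding genes. ERSE-II was present in 2 of the 38, Herpud1 and Dnajb11, against 0.0365% of all promoters. The elements are shown because they are the known stress-response letters of this pathway; each is printed in its own orientation, with the paired letters in capitals. Both elements contain a CCAAT box, so they overlap the count of CCAAT boxes given further on.
Hspa5: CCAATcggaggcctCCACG
Hsp90b1, farther from the start: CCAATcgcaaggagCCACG
Hsp90b1, nearer to the start: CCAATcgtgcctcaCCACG
Dnajc3: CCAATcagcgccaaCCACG
Creld2: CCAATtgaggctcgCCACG
Calr: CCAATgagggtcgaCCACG
Canx: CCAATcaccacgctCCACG
Pdia6: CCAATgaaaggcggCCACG
Syvn1: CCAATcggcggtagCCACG
Derl3: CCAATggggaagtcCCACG
Herpud1: ATTGGgCCACG
Dnajb11: ATTGGcCCACG

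The whole promoter window is shown for 6 genes chosen as examples after their values were seen: Hspa5, Hsp90b1, Herpud1 and Syvn1 had a UTX peak under both treatments, Dnajb9 had the tallest UTX MI-503 peak of the 44 genes, and Ern1 had the tallest Menin DMSO peak without any CCAAT box. Hspa5, Hsp90b1, Herpud1 and Syvn1 each hold ERSE or ERSE-II. Eif2ak3 and Os9 also had a UTX peak under both treatments, hold neither element and are not shown. Manf had such peaks too but no promoter sequence. Each window runs in the direction of the gene, and capitals mark CCAAT and CCACG on either strand.
Hspa5 (chr2:34771840-34772139, plus strand): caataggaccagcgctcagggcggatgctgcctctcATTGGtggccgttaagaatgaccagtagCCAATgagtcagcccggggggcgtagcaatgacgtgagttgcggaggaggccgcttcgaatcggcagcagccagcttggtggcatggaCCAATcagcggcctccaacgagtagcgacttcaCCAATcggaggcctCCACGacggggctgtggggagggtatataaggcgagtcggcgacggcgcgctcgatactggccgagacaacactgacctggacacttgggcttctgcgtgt
Hsp90b1 (chr10:86705395-86705694, minus strand): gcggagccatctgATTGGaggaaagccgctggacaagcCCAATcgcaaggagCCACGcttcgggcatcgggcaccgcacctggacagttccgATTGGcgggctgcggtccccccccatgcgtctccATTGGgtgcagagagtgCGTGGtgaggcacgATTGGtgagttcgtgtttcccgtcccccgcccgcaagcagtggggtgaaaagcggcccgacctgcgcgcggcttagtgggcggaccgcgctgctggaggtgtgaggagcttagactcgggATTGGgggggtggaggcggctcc
Dnajb9 (chr12:44210019-44210318, minus strand): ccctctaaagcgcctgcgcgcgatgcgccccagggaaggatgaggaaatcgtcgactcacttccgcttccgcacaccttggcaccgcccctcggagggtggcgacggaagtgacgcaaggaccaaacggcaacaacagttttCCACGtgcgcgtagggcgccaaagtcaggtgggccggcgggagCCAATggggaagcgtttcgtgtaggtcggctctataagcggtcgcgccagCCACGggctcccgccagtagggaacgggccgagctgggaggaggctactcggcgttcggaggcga
Ern1 (chr11:106487747-106488046, minus strand): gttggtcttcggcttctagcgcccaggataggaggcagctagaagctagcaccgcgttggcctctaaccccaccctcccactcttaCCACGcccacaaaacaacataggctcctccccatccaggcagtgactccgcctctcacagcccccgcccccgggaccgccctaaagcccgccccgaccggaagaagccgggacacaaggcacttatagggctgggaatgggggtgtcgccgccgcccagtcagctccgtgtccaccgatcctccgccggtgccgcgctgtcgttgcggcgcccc
Herpud1 (chr8:94386179-94386478, plus strand): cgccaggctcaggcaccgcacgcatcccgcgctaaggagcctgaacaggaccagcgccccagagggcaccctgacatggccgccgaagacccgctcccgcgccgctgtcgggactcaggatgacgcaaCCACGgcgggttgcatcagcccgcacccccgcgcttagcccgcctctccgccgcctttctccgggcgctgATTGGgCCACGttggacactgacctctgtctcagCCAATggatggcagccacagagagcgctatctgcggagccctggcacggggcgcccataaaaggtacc
Syvn1 (chr19:6046326-6046625, plus strand): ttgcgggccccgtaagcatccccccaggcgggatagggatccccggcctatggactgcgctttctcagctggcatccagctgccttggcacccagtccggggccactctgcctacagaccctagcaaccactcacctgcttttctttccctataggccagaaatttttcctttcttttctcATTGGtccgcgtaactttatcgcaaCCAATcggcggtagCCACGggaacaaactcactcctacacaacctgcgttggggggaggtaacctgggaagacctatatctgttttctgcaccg

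UTX peaks lay at 40 of the 44 genes in MI-503 and at 7 in DMSO. Across all protein-coding genes the shares were 36.5% in UTX MI-503 and 0.777% in UTX DMSO. Each list was also cut to the 217 peaks with the highest −log10 q, the length of the UTX DMSO list. The counts were then 9 of the 44 genes in UTX MI-503 and 7 in UTX DMSO. With a −log10 q of at least 10 they were 35 in UTX MI-503 and 2 in UTX DMSO. Menin peaks ran the other way, at 0 of the 44 genes in MI-503 and at 39 in DMSO. With the Menin DMSO list cut to its 217 peaks of highest −log10 q, the count was 0 in either. In the uncut lists the shares of all protein-coding genes were 0.00914%, which is 2 genes, in Menin MI-503 and 31.2% in Menin DMSO. The shares after each cut were not computed, so the counts after a cut have no background beside them. UTX MI-503 and Menin DMSO peaks coincided at 38 of the 44 genes, against 28.4% of all protein-coding genes. These backgrounds include silent genes, and no expression values were analysed. The 2 lists that hold few of these genes also hold few peaks in all, 217 for UTX DMSO and 8 for Menin MI-503, against 14231 for UTX MI-503 and 11195 for Menin DMSO. The smallest step between peak heights put the reads of the UTX DMSO library at 1.14 times those of its input or more, and those of the Menin MI-503 library at 1.35 times or more, while the UTX MI-503 and Menin DMSO libraries showed no scaling down to their inputs; absolute depth is unknown, and its part in the counts was not tested. A vehicle input was shared by the UTX lists and another by the Menin lists.

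**Figure D1:**
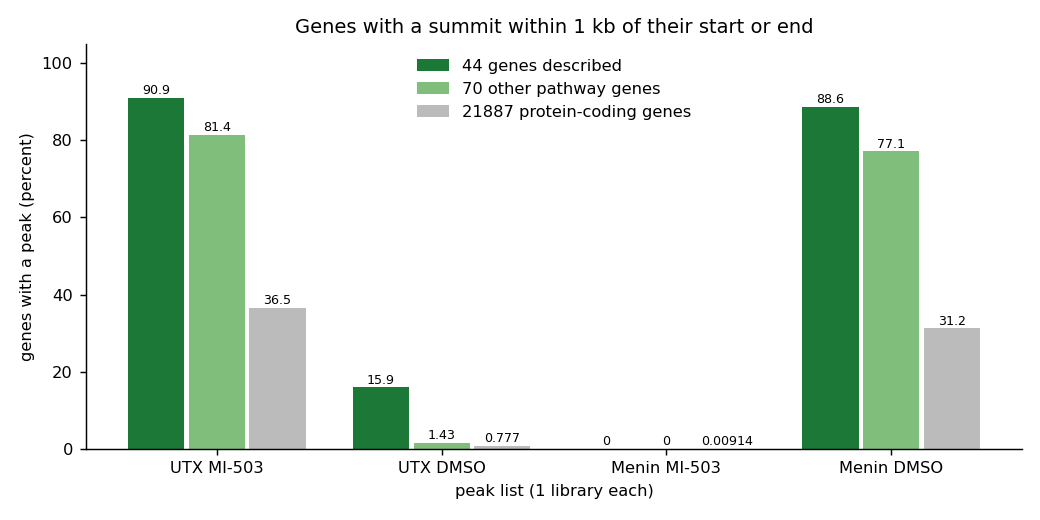
Bars give the percentage of genes with a summit within 1 kb of their start or end (vertical axis) in each of the 4 peak lists (horizontal axis, 1 library each), for the 44 genes described, 70 other genes of the same pathways and all 21887 protein-coding genes. The 44 genes stand at 90.9% in UTX MI-503 and 88.6% in Menin DMSO, at 15.9% in UTX DMSO and at 0 in Menin MI-503.

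Peak height is given as fold enrichment, the authors' own value for each peak: the pileup of fragments at the summit plus 1, divided by the local background plus 1. It orders genes within a list; it does not compare antibodies, since the background recovered at these peaks was 0.827 to 1.47 fragments in UTX MI-503 and 2.39 to 7.34 in Menin DMSO. The median fold at the 44 genes was 17.2 in UTX MI-503, against 10.1 at all genes with a peak there, and 32 of 40 genes were above that median. In Menin DMSO the medians were 8.86 at the 44 genes and 7.34 at all genes with a peak, with 25 of 39 above it. Of the 40 genes in UTX MI-503, 17 fell in the top 10% of genes with a peak in that list, as did 3 of 39 in Menin DMSO. The summits rested on 9 to 73 fragments in UTX MI-503, 14 to 21 in UTX DMSO and 15 to 102 in Menin DMSO, and the intervals given with folds are exact 95% Poisson intervals on those counts, which cover counting error only.

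The lumenal chaperones had the tallest UTX MI-503 peaks as a group. All 10 had a UTX MI-503 peak, with a median fold of 26.0, and all 10 had a Menin DMSO peak, with a median of 9.05. Among the tallest were stress-induced partners of the main chaperone. Dnajb9, a J-domain cochaperone that is a classic IRE1 target, had a fold of 40.5 (31.9 to 50.8) in UTX MI-503, no UTX DMSO peak and a fold of 17.5 (14.3 to 21.2) in Menin DMSO. Sdf2l1, which works with Dnajb11 on Hspa5, had folds of 35.2 in UTX MI-503 and 9.65 in Menin DMSO, with no UTX DMSO peak. Manf, a small ER stress-induced protein, had folds of 31.2 in UTX MI-503, 9.81 in UTX DMSO and 6.72 in Menin DMSO.

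Hspa5 encodes BiP, the main chaperone of the ER lumen. It had a fold of 28.0 (21.4 to 36.0) in UTX MI-503, 7.25 (4.35 to 11.5) in UTX DMSO and 8.24 (6.34 to 10.5) in Menin DMSO. Its UTX MI-503 peak was 680 bp wide and was flanked by peaks of 6.47-fold and 6.72-fold within 1 kb of the start. Hsp90b1, the HSP90 of the ER, had folds of 25.7 (19.0 to 34.1) in UTX MI-503, 7.37 (4.28 to 12.0) in UTX DMSO and 8.44 (6.01 to 11.5) in Menin DMSO. Both genes were thus present in 3 of the 4 lists. The remaining cochaperones had no UTX DMSO peak. Hyou1, a nucleotide exchange factor for Hspa5, had folds of 25.0 in UTX MI-503 and 14.4 in Menin DMSO. Dnajb11 had folds of 26.3 in UTX MI-503 and 6.65 in Menin DMSO, and Dnajc3 had 25.5 in UTX MI-503 and 12.7 in Menin DMSO. Creld2 had folds of 22.4 in UTX MI-503 and 9.86 in Menin DMSO. Dnajc10, a J-domain disulphide reductase, was the lowest of the chaperones in both lists, with folds of 7.54 (14 fragments at the summit) in UTX MI-503 and 6.49 (25 fragments) in Menin DMSO.

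The lectin chaperones Calr and Canx, which hold newly made glycoproteins, had almost the same heights. Calr had folds of 32.2 in UTX MI-503 and 11.1 in Menin DMSO, and Canx had 31.9 in UTX MI-503 and 10.6 in Menin DMSO. The disulphide isomerases that work beside them spread more widely in UTX MI-503. P4hb, the canonical isomerase, had folds of 27.9 in UTX MI-503 and 11.6 in Menin DMSO, and its UTX peak of 1057 bp was the widest of the 44 genes. Pdia3, the partner of Calr and Canx, had folds of 17.8 in UTX MI-503 and 8.86 in Menin DMSO. Pdia4 had folds of 13.0 in UTX MI-503 and 6.11 in Menin DMSO. Pdia6 had the lowest UTX MI-503 fold of this group, 8.21 (4.74 to 13.4), and a Menin DMSO fold of 10.3 (7.39 to 14.0). None of these 6 genes had a UTX DMSO peak.

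The sensors and XBP1 differed among themselves. Ern1 encodes IRE1, the sensor that splices Xbp1 mRNA; it had a fold of 10.7 (6.81 to 16.1) in UTX MI-503, near the middle of that list, and 21.1 (16.7 to 26.3) in Menin DMSO, above 95.8% of genes with a Menin DMSO peak. Eif2ak3 encodes PERK, the sensor that slows translation, and showed the opposite order. Its folds were 19.2 (13.9 to 26.0) in UTX MI-503, 7.86 (4.85 to 12.1) in UTX DMSO and 4.79 (3.37 to 6.60) in Menin DMSO, the last above 16.7% of genes with a peak. Xbp1, the transcription factor made from the spliced mRNA, had folds of 16.7 in UTX MI-503 and 5.09 in Menin DMSO, with summits 295 and 273 bp downstream of the start.

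Among 11 ERAD genes, 10 had a UTX MI-503 peak (median fold 17.4), 3 a UTX DMSO peak and 10 a Menin DMSO peak (median fold 10.4). The membrane ubiquitin ligase complex held the tallest. Herpud1, a scaffold of that complex, had folds of 39.9 (31.4 to 50.2) in UTX MI-503, 7.37 (4.28 to 12.0) in UTX DMSO and 11.4 (8.83 to 14.4) in Menin DMSO. Sel1l, the cofactor of the ligase, had folds of 31.2 in UTX MI-503 and 12.2 in Menin DMSO. Syvn1, the ligase HRD1 itself, had folds of 15.3 (10.3 to 22.0) in UTX MI-503, 10.8 (6.89 to 16.2) in UTX DMSO and 7.81 (5.66 to 10.5) in Menin DMSO. Syvn1 was the tallest of the 7 genes in UTX DMSO and the lowest of the 7 in UTX MI-503. Os9, a lectin that presents glycoproteins to the ligase, had folds of 26.7 in UTX MI-503, 8.81 in UTX DMSO and 11.8 in Menin DMSO. Vcp, the ATPase that extracts proteins from the membrane, had folds of 22.2 in UTX MI-503 and 9.63 in Menin DMSO.

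The derlins, membrane proteins of the exit route, were of middle height. Derl1 had folds of 13.4 in UTX MI-503 and 11.5 in Menin DMSO, Derl2 had 16.2 in UTX MI-503 and 8.08 in Menin DMSO, and Derl3 had 18.6 in UTX MI-503 and 5.95 in Menin DMSO. The mannose-trimming proteins were lower in UTX MI-503. Edem3 had folds of 9.12 in UTX MI-503 and 11.3 in Menin DMSO, and Edem2 had 6.90 in UTX MI-503 and 5.71 in Menin DMSO. Edem1 had no summit within 1 kb of its annotated start or end.

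The 12 translocation and signal peptidase genes had the lowest median UTX MI-503 fold of the 6 roles. UTX MI-503 peaks lay at 10 of them, with a median fold of 10.5, and Menin DMSO peaks at 9, with a median of 7.03. Of the Sec61 channel, Sec61a1, the pore subunit, had folds of 5.76 (3.12 to 9.93) in UTX MI-503 and 12.3 (9.27 to 16.1) in Menin DMSO. The small subunits Sec61b and Sec61g had UTX MI-503 peaks alone, with folds of 4.86 (9 fragments) and 9.30 (16 fragments). Sec62, a channel partner, had folds of 10.1 in UTX MI-503 and 6.62 in Menin DMSO. Its partner Sec63 had a Menin DMSO peak alone, with a fold of 7.03.

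The 4 genes of the translocon-associated protein complex all had both peaks. Ssr1 had folds of 14.4 in UTX MI-503 and 14.0 in Menin DMSO, and Ssr3 had 16.4 in UTX MI-503 and 8.08 in Menin DMSO. Ssr2 had folds of 11.7 in UTX MI-503 and 6.45 in Menin DMSO, with both summits on the same base, and Ssr4 had 10.9 in UTX MI-503 and 6.61 in Menin DMSO. The signal peptidase subunits differed widely. Spcs3 had folds of 22.1 in UTX MI-503 and 17.1 in Menin DMSO, and Spcs1 had 7.66 in UTX MI-503 and 3.94 (15 fragments) in Menin DMSO, the lowest Menin fold of the 39. Of 2 COPII coat genes, which bud vesicles from the ER, Sec23b had folds of 12.6 in UTX MI-503 and 5.26 in Menin DMSO. Sec24d had neither peak by the 1 kb rule.

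**Figure D2:**
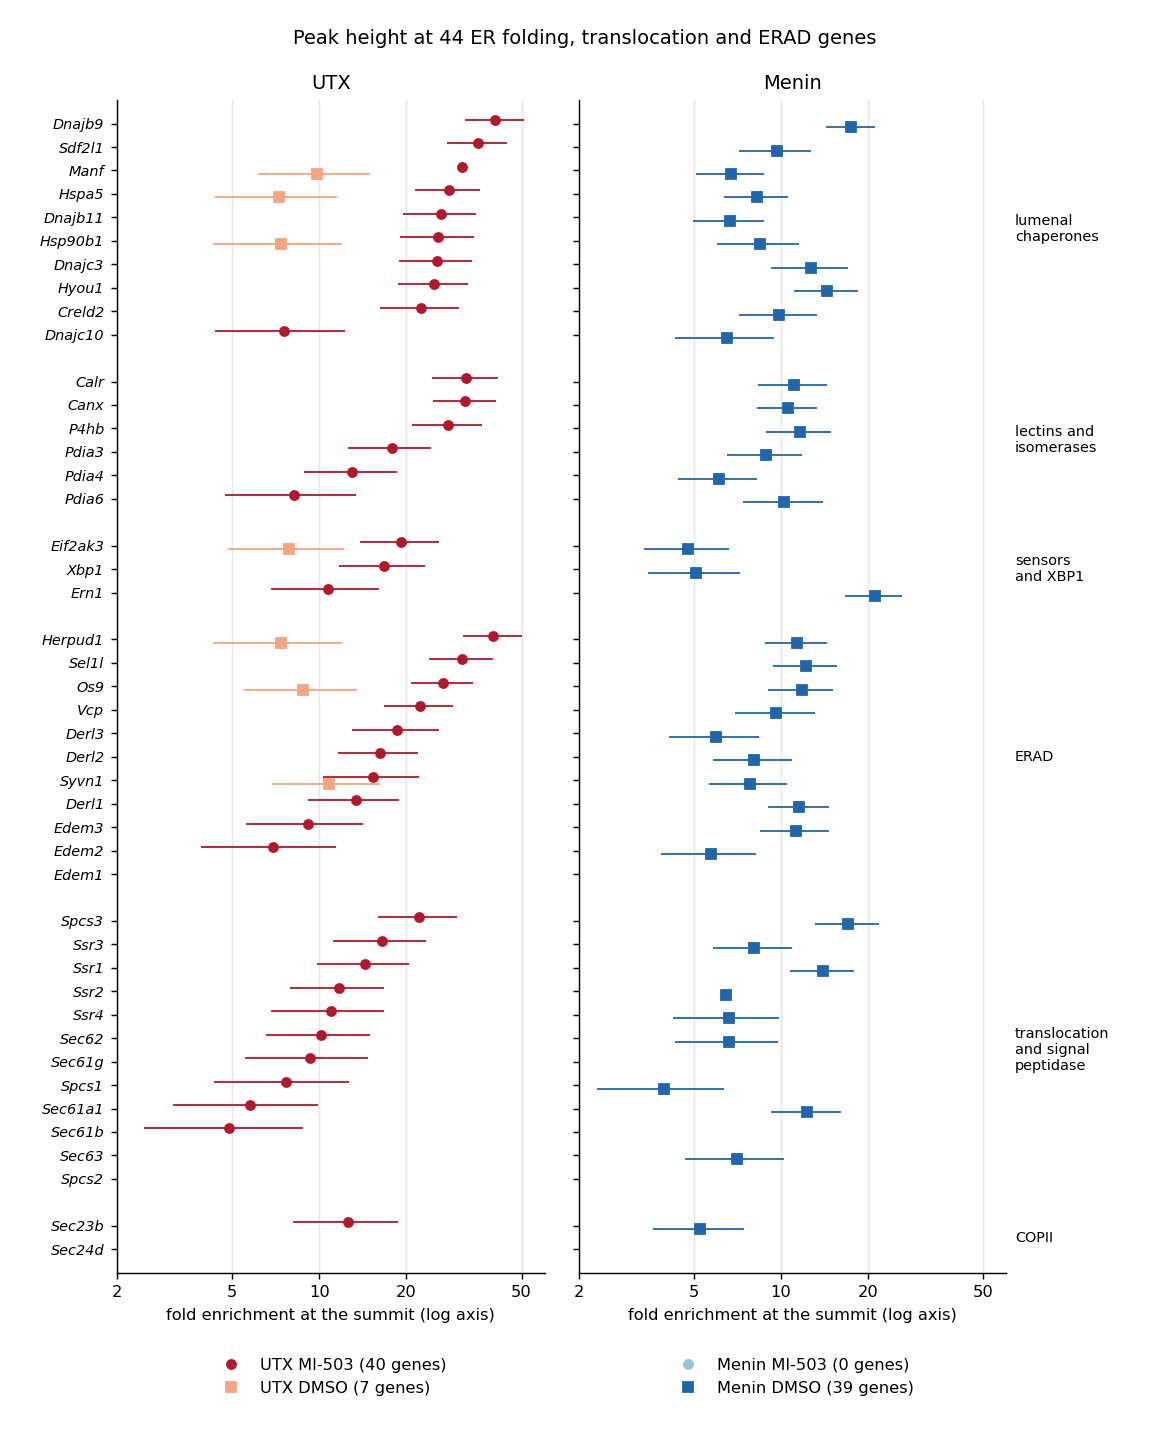
Fold enrichment at the summit of the highest peak (horizontal log axis) for each of the 44 genes (rows, grouped by role), UTX on the left and Menin on the right; circles are MI-503, squares are DMSO, and lines are exact 95% Poisson intervals on the fragments at the summit where these could be recovered. UTX MI-503 folds run from 4.86 at Sec61b to 40.5 at Dnajb9, Menin DMSO folds from 3.94 at Spcs1 to 21.1 at Ern1, and the 7 UTX DMSO folds from 7.25 to 10.8.

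The 7 genes with a UTX DMSO peak were Hspa5, Hsp90b1, Manf, Eif2ak3, Herpud1, Syvn1 and Os9. Their UTX MI-503 folds were 15.3 to 39.9, with a median of 26.7, while the 33 other genes with a UTX MI-503 peak ran from 4.86 to 40.5 with a median of 16.2. The groups overlapped: of the 17 genes with a UTX MI-503 fold over 20, 5 had a UTX DMSO peak, and Dnajb9, the tallest, had none. The UTX DMSO peaks of the 7 genes were 154 to 195 bp wide. Their median width was 169 bp, against 136 bp at all protein-coding genes with a UTX DMSO peak. Width differed between the lists as a whole, with a median of 144 bp in UTX DMSO and 264 bp in UTX MI-503. The UTX DMSO peaks of the 7 genes lay inside the MI-503 peaks, with a median of 38 bp between summits and at most 216 bp, at Eif2ak3. At Manf the summits of both treatments were 1 bp apart and at Syvn1 9 bp. Their summits rested on 14 to 21 fragments. The lowest fold of a UTX DMSO peak at any protein-coding gene was 3.68.

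UTX and Menin summits lay close together although antibody and treatment both differed. At the 38 genes with both, the median distance between the UTX MI-503 and Menin DMSO summits was 26.5 bp and the largest was 178 bp, at P4hb. The distance was 50 bp or less at 29 of 38 genes (76.3%), against 58.2% of 6210 protein-coding genes with both peaks, whose median was 39 bp. The peaks overlapped at 38 of 38 genes and at 94.6% of all genes with both. Of 32 genes whose summits could both be placed from the transcription start, the Menin DMSO summit was the farther upstream at 21 and the UTX MI-503 summit at 11. That order was not counted over all genes. Relative to the start, with upstream negative, the median summit was at -71.5 bp for UTX MI-503 (34 genes) and at -82 bp for Menin DMSO (33 genes), against -46 and -64 bp over all genes. At the genes with a promoter entry, every peak counted was at the transcription start and not at the far end.

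Height in the UTX MI-503 list did not follow height in the Menin DMSO list closely at these genes. The Spearman correlation of the folds was 0.347 over the 38 genes with both, and 0.428 over all 6210; these are correlations across genes of 2 libraries, which are not replicates. Ranked among all genes with a peak in its own list, UTX MI-503 was the higher of the ranks at 29 of 38 genes and Menin DMSO at 9. Only Dnajb9 and Spcs3 were in the top 10% of both lists. The UTX rank exceeded the Menin rank by over 50 percentile points at 5 genes: Eif2ak3, Xbp1, Manf, Dnajb11 and Derl3. The Menin rank was the higher by over 30 points at 4: Sec61a1, Ern1, Pdia6 and Edem3. None of these rank counts was made over all 6210 genes, so they have no background beside them. Sec61a1 stood above 9.82% of genes in UTX MI-503 and above 81.5% in Menin DMSO.

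The rule missed 3 promoters. Farthest inside it were Sec61b, with its UTX MI-503 summit 590 bp from the start, and Derl2, with summits 472 bp (UTX MI-503) and 409 bp (Menin DMSO) from the annotated end. Nearest outside it was Sec24d, with a UTX MI-503 summit of 8.49-fold 2505 bp inside the gene. Measured from the transcription start of the promoter table, which lies inside the annotated gene there, that summit was 190 bp upstream. Edem1, which sends misfolded glycoproteins to degradation, had a UTX MI-503 peak of 11.9-fold 228 bp upstream of its promoter-table start and a Menin DMSO peak of 21.3-fold 157 bp upstream, taller than any counted at the other genes. Spcs2 had a UTX MI-503 peak of 17.0-fold 78 bp upstream of its promoter-table start and a Menin DMSO peak of 5.45-fold 90 bp upstream. With the start in place of the gene boundaries, and the boundary rule kept for the 6 genes with no promoter entry, 43 of the 44 genes had a UTX MI-503 peak, 7 a UTX DMSO peak and 41 a Menin DMSO peak. Among 38 genes with an entry, 37 had a UTX MI-503 peak, against 39.1% of 17492 protein-coding genes with one. The counts were 6 for UTX DMSO, against 0.863%, and 35 for Menin DMSO, against 33.5%.

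CCAAT boxes were common in these promoters. The letters CCAAT, on either strand, were present in 29 of 38 promoters (76.3%), against 37.4% of all promoters and 39.1% of protein-coding genes. At least 3 boxes were present in 13 of 38 (34.2%), against 4.20% of protein-coding genes. Hsp90b1 and Eif2ak3 had 6 each, and Dnajb11, Derl2, Derl3 and Vcp had 5 each. By role, a box was present in 7 of 8 lumenal chaperones, 6 of 6 lectins and isomerases, 1 of 3 sensors and XBP1, 9 of 10 ERAD genes, 4 of 9 translocation genes and 2 of 2 COPII genes. The letters CCACG alone were present in 29 of 38, against 32.8% of all promoters. CACGTG, a core that XBP1 can bind, was present in 5 of 38 against 7.15%, and TGACG, the core of ATF6 and CREB-family sites, in 16 of 38 against 20.8%. These are letter matches, which do not show that a factor was bound.

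The summits mostly lay near the boxes where a promoter held 2 or more. Where a promoter held a box and a gene had a peak, the UTX MI-503 summit was a median of 16 bp from the nearest CCAAT at 25 of these genes, against 55 bp at 2568 other protein-coding genes. The Menin DMSO summit was a median of 12 bp away at 25 of these genes, against 44 bp at 2321 others. Promoters with more boxes offer a nearer box to any position, and these genes had more of them. Among promoters with 1 box the UTX MI-503 medians were 79.5 bp (2 genes) against 84 bp (1406 others). The Menin DMSO medians there were 117 bp (3 genes) against 70 bp (1279 others). Among promoters with 2 boxes the medians were 16.5 bp (10 genes) against 36 bp (703 others) for UTX MI-503, and 9 bp (9 genes) against 32 bp (619 others) for Menin DMSO. Among promoters with 3 or more boxes the medians were 16 bp (13 genes) against 21 bp (459 others) for UTX MI-503, and 12 bp (13 genes) against 17 bp (423 others) for Menin DMSO. In the Herpud1 window printed above, the UTX MI-503 summit was 60 bp and the Menin DMSO summit 45 bp upstream of the start, and the ERSE-II spans 52 to 42 bp upstream. In the Syvn1 window the summits were 33 bp (UTX MI-503), 42 bp (UTX DMSO) and 51 bp (Menin DMSO) upstream, and the ERSE spans 44 to 26 bp upstream. In the Hspa5 window the summits were 141, 98 and 188 bp upstream in the same order, while the ERSE spans 65 to 47 bp upstream.

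**Figure D3:**
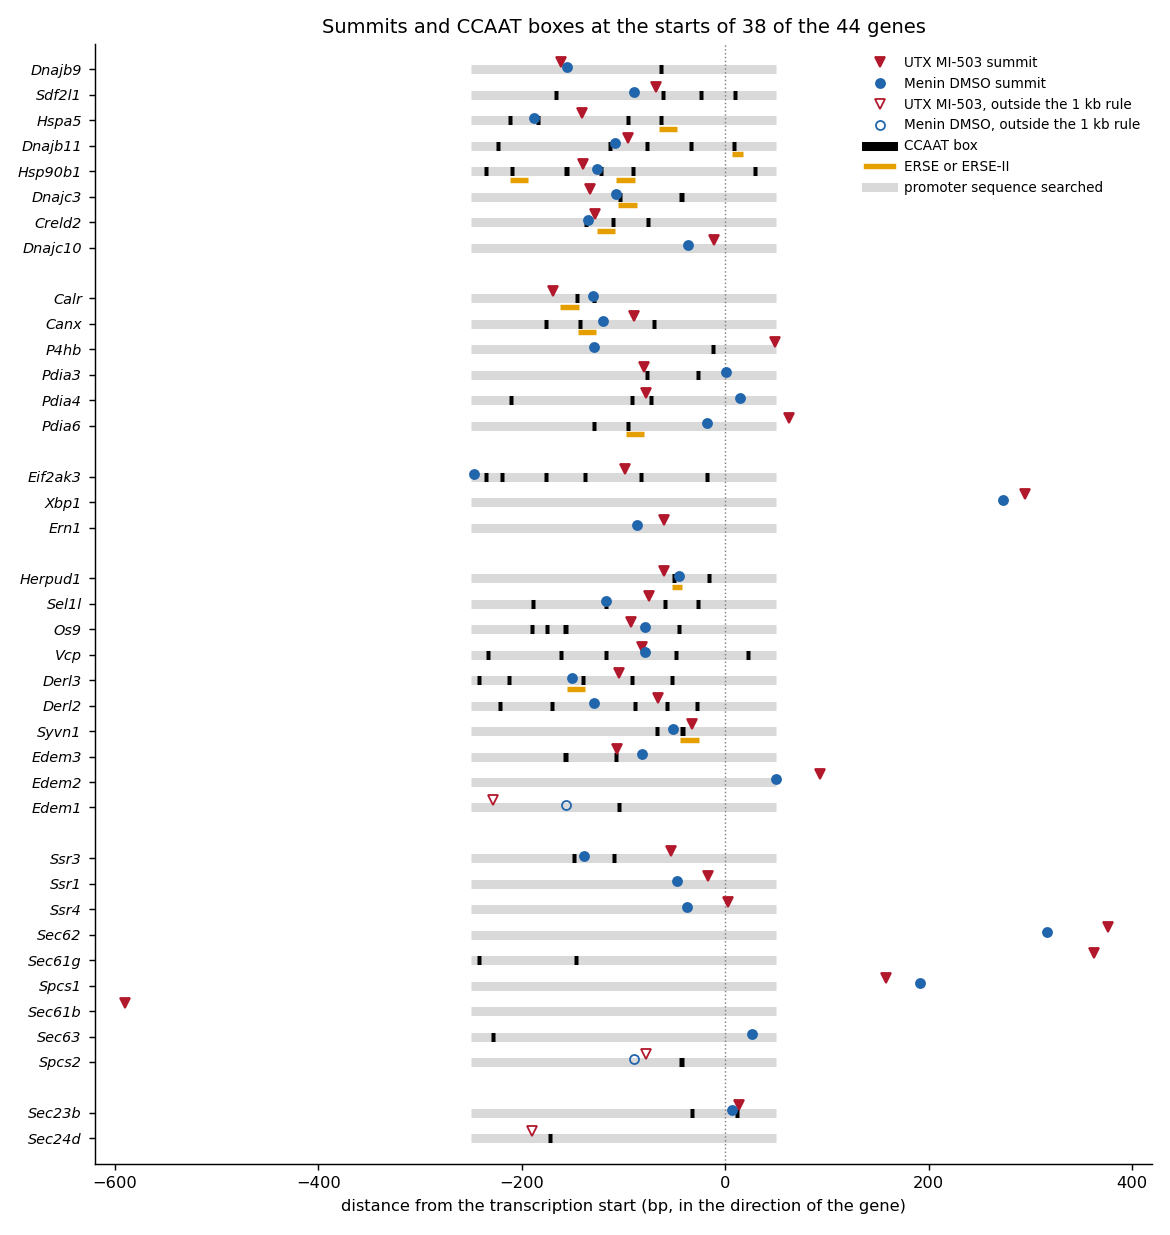
Position of the UTX MI-503 summit (triangles) and the Menin DMSO summit (circles) from the transcription start in bp (horizontal axis, upstream negative) for the 38 genes with a promoter sequence (rows, by role); grey marks the 300 bases searched, black the CCAAT boxes, orange ERSE or ERSE-II, and open symbols the summits at Edem1, Spcs2 and Sec24d that the 1 kb rule did not count. Upstream of the start lie 25 of 34 UTX MI-503 summits and 25 of 33 Menin DMSO summits counted by the rule; farthest downstream are those of Xbp1, Sec62, Sec61g and Spcs1.

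UTX MI-503 folds were higher where promoters held CCAAT boxes, both at these genes and at others. Menin DMSO medians differed at these genes but little at other genes, with 7.49 with a box and 7.34 without. Each list is read on its own here. The sizes of the differences do not compare the antibodies, whose backgrounds and treatments differ. The median UTX MI-503 fold was 22.4 at the 25 genes with a box and 10.1 at the 9 without. Those 9 were Sec61b, Edem2, Dnajc10, Spcs1, Sec62, Ern1, Ssr4, Ssr1 and Xbp1, from 4.86 to 16.7, and 5 of them are translocation genes, so role and box move together. Boxes were sought only in the promoter sequence, which held 27 of 34 UTX MI-503 summits and 29 of 33 Menin DMSO summits. Outside it were the UTX MI-503 summits of Sec61b, Edem2, Spcs1, Sec62 and Xbp1 without a box, and of Sec61g and Pdia6 with one. The letters under those summits were not searched. The median Menin DMSO fold was 9.63 at the 25 genes with a box and 6.55 at the 8 without, whose highest was Ern1. With 0, 1, 2 and 3 or more boxes, the genes described had median UTX MI-503 folds of 10.1, 34.2, 15.9 and 25.7. Those medians rested on 9, 2, 10 and 13 genes and did not climb steadily. Over other protein-coding genes, the median UTX MI-503 fold was 9.30, 10.9, 13.6 and 16.2 with 0, 1, 2 and 3 or more boxes. The median Menin DMSO fold over other genes was 7.34, 7.42, 7.86 and 7.08 in the same order. The Spearman correlation of fold with the number of boxes was 0.533 at 34 of the 44 genes and 0.265 at 5979 other genes in UTX MI-503. In Menin DMSO it was 0.016 at 33 genes and 0.015 at 5178 others. These correlations describe genes within 1 library each, which share that library and its depth, and they are not corrected for base composition. The GC content of the promoters moved with the boxes among the 44 genes, with a median of 63.0% at the 25 with a box and a UTX MI-503 peak and 51.0% at the 9 without, while among other genes it was 61.0% with a box and 63.3% without. Its part in the result was not tested.

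**Figure D4:**
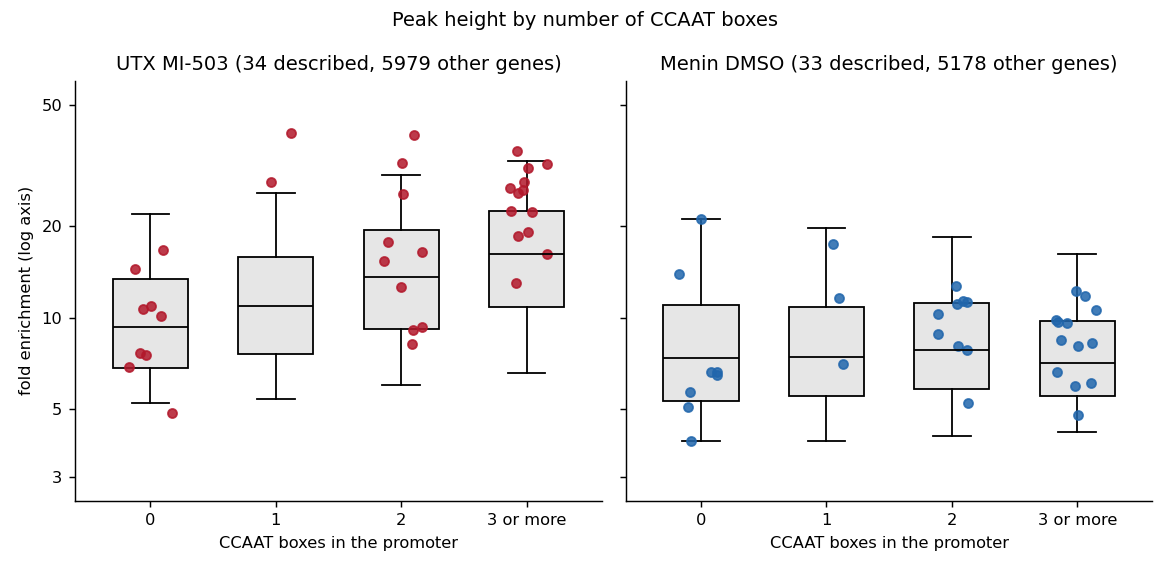
Fold enrichment of the highest peak (vertical log axis) by the number of CCAAT boxes in the promoter (horizontal axis), UTX MI-503 on the left and Menin DMSO on the right; coloured points are genes of the 44 and boxes show the quartiles and median of all other protein-coding genes, with whiskers at the 5th and 95th percentiles. The median of other genes climbs from 9.30 to 16.2 in UTX MI-503 and stays between 7.08 and 7.86 in Menin DMSO.

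At the 11 genes with ERSE or ERSE-II, peaks of UTX MI-503 and of Menin DMSO were present in every case, with median folds of 25.7 and 9.86. Of 26 other protein-coding genes with either element, 8 had a UTX MI-503 peak (30.8%, median fold 17.9) and 7 a Menin DMSO peak (26.9%, median fold 10.6), against 36.5% and 31.2% of all protein-coding genes. Those with both peaks were Hnrnpa3, Rbm39, Nucb1, Pan2, Ero1b, Rcl1 and Alg12, the last through the same peaks as its neighbour Creld2. The members of that set without a peak included Calr4 and the Esp and Xlr3 gene copies, so a peak did not accompany the letters at every gene.

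Genes of the same pathways outside the 44 were counted for comparison. UTX peaks lay at 57 of 70 such genes in MI-503 (81.4%) and at 1 in DMSO. Menin peaks lay at 0 of the 70 in MI-503 and at 54 in DMSO (77.1%), and 50 genes had both UTX MI-503 and Menin DMSO. The median UTX MI-503 fold was 12.9 over these 57 genes and the median Menin DMSO fold 8.24 over the 54. The oligosaccharyltransferase, which attaches glycans to proteins as they enter the ER, had a UTX MI-503 peak at 10 of 10 genes, led by Stt3b at 31.2-fold. Its subunit gene Rpn2 had the only UTX DMSO peak of the 70, with folds of 21.7 in UTX MI-503, 8.81 in UTX DMSO and 8.03 in Menin DMSO. Of 9 stress signalling genes, 8 had a UTX MI-503 peak, among them Atf4, the transcription factor downstream of PERK, at 20.8-fold. Atf6, the sensor that is cleaved to a transcription factor, had a Menin DMSO peak of 4.24-fold alone. The other COPII genes had a median Menin DMSO fold of 15.1, over the 8 of 10 with a peak, the highest among the 6 groups outside the 44.

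At 9 of the 44 genes the summit also lay within 1 kb of the start or end of a neighbouring protein-coding gene, so the peak cannot be given to either alone. The pairs were Hsp90b1 with Ttc41, Dnajb11 with Tbccd1, Creld2 with Alg12, Manf with Dock3, Pdia3 with Catsper2, Derl2 with Mis12, Sec61b with Alg2, Ssr4 with Idh3g and Spcs1 with Glt8d1. The summits of Creld2 lay 128 bp (UTX MI-503) and 135 bp (Menin DMSO) from Creld2 and 200 and 193 bp from Alg12, a mannosyltransferase of glycan assembly. By annotated boundary, the summits of Sec61b, Dnajb11 and Derl2 were nearer to the neighbour. The Sec61b summit lay 296 bp from Alg2 and 590 bp from its own start. The Dnajb11 summits lay 54 bp (UTX MI-503) and 42 bp (Menin DMSO) from Tbccd1, and 96 and 108 bp from Dnajb11. The Derl2 summits lay 199 and 136 bp from Mis12, and 472 and 409 bp from the annotated end of Derl2. From the promoter-table start of Derl2 they were 66 and 129 bp.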

How the data were processed

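Peak lists of 4 of 30 labelled libraries were analysed; the other 26 were not used here. Per the labels' protocols, cells were fixed with 1% paraformaldehyde and sonicated. Peaks were called with MACS2 on mm10, per the submitters' processing notes, which give no version; the sources used here do not state the aligner or thresholds. Per the peak names in the deposited files, every list comes from 1 library set against a vehicle input. The deposited fold is a ratio, the deposited p-values and q-values are −log10 values, and the deposited score repeats −log10 q. The peak with the highest −log10 q within the window was used. The members, gene lists and motifs were chosen with earlier results of these data known, and all members are named.

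Python 3 scripts (pandas, numpy, scipy) placed summits and searched exact motifs in RefSeq promoters. They also recovered the pileup and background at each summit from fold and p-value. The step of the pileup was found from whole multiples within 0.01 of a step. At each summit a wider tolerance was accepted, and a background of at least 0.5 was required. At 40 UTX MI-503, 7 UTX DMSO and 39 Menin DMSO peaks, fragments were recovered for 39, 7 and 38. Absolute depth is unknown. The rules were tested on simulated data. No test between conditions was possible with 1 library each. Alternatives covered the window, thresholds, list length, overlap and strand; the CCAAT contrasts were added after seeing the data.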

Additional observations from a re-analysis of the deposited data

Results flagged for a closer look

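The change between treatments ran in opposite directions for the antibodies. The number of the 44 genes with a UTX peak was 40 in MI-503 and 7 in DMSO, a difference of 33 as MI-503 minus DMSO. The number with a Menin peak was 0 in MI-503 and 39 in DMSO, a difference of -39. With each list cut to its 217 peaks of highest −log10 q, the UTX counts were 9 in MI-503 and 7 in DMSO. Counting only peaks at or above a −log10 q of 10, they were 35 in MI-503 and 2 in DMSO. This was flagged because the MI-503 library had more genes with a peak than the DMSO library for UTX and fewer for Menin. The difference was not tested, as each condition has 1 library, and the lists as a whole differ in length in the same directions. The share of all protein-coding genes after each cut was not computed.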

How the results depend on the processing

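Of 62 alternative values for 11 results, 58 stayed within 1.5 times the count or within the SD over genes, and 4 moved. For the median summit distance and the Menin DMSO difference by CCAAT box, that SD was larger than the value itself. A shift to 0 would have counted as staying there. Cutting the UTX DMSO list to its own length could not change its count, and the Menin MI-503 list held few peaks to count. The 58 therefore does not measure how robust the results are. Lists were cut to the 217 peaks with the highest −log10 q, the length of the UTX DMSO list. The number of the 44 genes with a peak was then 9 in UTX MI-503, 7 in UTX DMSO and 0 in Menin DMSO. In that setting 0 had both UTX MI-503 and Menin DMSO. By construction, this cut keeps fewer peaks. The share of all protein-coding genes was not computed for lists cut by length or by q. With a −log10 q of at least 10, UTX DMSO peaks remained at 2 genes, Manf and Syvn1. Over the other settings the counts were 35 to 43 (UTX MI-503), 37 to 41 (Menin DMSO) and 34 to 40 (both), and the Menin MI-503 count was 0 in every setting tried. The difference in median UTX MI-503 fold between genes with and without a CCAAT box was 12.0 to 13.1. No paired analysis was possible because each condition has 1 library. Absolute depth is unknown, so absence from a list is not absence of the protein.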
